A study of Mus musculus with 8 samples.

Results

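The genes described here encode 36 enzymes that build nucleotides or supply the sugar and the cofactor for building them, and they were followed in mouse leukemic cells treated with the prolyl hydroxylase inhibitor IOX5. The set was chosen by name and function, with earlier results of these data known. It holds 9 genes of the pentose phosphate pathway and of PRPP synthesis, 12 of purine synthesis and salvage, 5 of pyrimidine synthesis and 10 that make, interconvert or remove deoxynucleotides (dNTPs). All 36 were found, each under 1 Ensembl identifier, among the 54838 genes listed for the series, and all 36 were among the 12405 genes that had enough reads to be tested.

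RNA sequencing was performed on 8 samples, 4 treated with the vehicle DMSO and 4 with IOX5. Both groups were labelled as leukaemic stem cells from bone marrow of genotype WT, and the cells of both carried *iMLL-AF9*, an allele on the C57BL/6 background that expresses the MLL-AF9 leukemia fusion when doxycycline is given. IOX5 inhibits the prolyl hydroxylases (PHDs) that mark HIF-α transcription factors for degradation, so the comparison asks what PHD inhibition does to gene expression in these cells. The methods give doses of IOX5 for other assays and an age range for the mice of the whole study, but the sources used here give no dose, treatment time or mouse age for these samples and do not say what the sample numbers 1 to 4 stand for, and the series design calls the cells preleukaemic where the labels say leukaemic. Nothing states that the 4 samples of a group came from separate cultures or mice. The p-values below weigh the difference between the groups against the spread between these samples, which may be technical.

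The pentose phosphate pathway draws glucose away from glycolysis, yielding NADPH in its oxidative steps and ribose phosphate in its reversible ones. PRPP synthetases activate that ribose, and purine rings are then assembled on it step by step, whereas the pyrimidine ring is made first and joined to PRPP afterwards. Ribonucleotide reductase converts ribonucleotides into the deoxynucleotides needed for copying DNA, salvage kinases recycle nucleosides, and dividing blood progenitors and leukemic cells are known for a high demand for all of these products.

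The DMSO libraries held 12343770 to 14116054 reads on genes, and those of IOX5 held 11351507 to 12708888. Of 6 HIF target genes (*Pdk1*, *Bnip3*, *Egln1*, *Egln3*, *Vegfa* and *Slc2a1*), all 6 had a higher mean with IOX5. For 3 of them (*Pdk1*, *Bnip3* and *Egln1*) the gene was called higher, against 0.774% of all genes tested. These 6 were chosen with earlier results of these data known, so they are no independent check of the treatment. Levels are given as CPM, which are read counts scaled to the size of each library. Each of the 10 markers of leukemic progenitors was detected, with a summed level of 3740 to 6800 CPM in DMSO and 4270 to 7640 in IOX5 samples. Markers of T cells (4 of 4 with 1 read or none in all 8 libraries together) and of B cells (at most 0.233 CPM summed) were at or near 0. The 6 macrophage markers summed to 148 to 206 CPM in DMSO and 225 to 500 in IOX5 samples, with *C1qa* at 21 reads in all, and their part in the results below was not tested. The summed levels of the neutrophil markers (236 to 938 against 323 to 1470 CPM, *Retnlg* at 0) and of the mast cell and basophil markers (126 to 486 against 249 to 749 CPM) overlapped between the groups.

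Most of the 36 enzyme genes had lower mRNA levels with IOX5, and 4 of the 8 genes with a higher level belonged to the pentose phosphate pathway (*Taldo1*, *Pgls*, *Pgd* and *Rpia*). The fold change was below 0 on the log2 scale for 28 genes and above 0 for 8, with a median of −0.19, where the median of all 12405 genes tested was 0.02. In the edgeR quasi-likelihood test, 4 genes passed an adjusted p under 0.05 as lower (*Cad*, *Ctps*, *Rrm2* and *Tk1*) and 1 as higher (*Taldo1*). Of all genes tested, 1.25% were called lower (155 genes) and 0.774% higher (96 genes, or 38.2% of the calls). With upper-quartile in place of TMM factors these were 108 lower and 101 higher (48.3% of the calls), and of the 36 genes 3 were called lower, without *Tk1*, and 1 higher. Together the 36 genes took 0.773% to 0.807% of the reads on genes in the DMSO samples and 0.698% to 0.787% in the IOX5 samples.

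The samples that carry the same number deviated from their group means together, and a fit with the number as a replicate block called more genes. Numbers 3 and 4 were poorly told apart in this. Pearson's r of the deviations was 0.685 for DMSO 4 with IOX5 3 and 0.636 for DMSO 4 with IOX5 4. For DMSO 3 it was 0.617 with IOX5 4 and 0.732 with IOX5 3. With the block, 15 of the 36 genes were called lower and 4 higher, where 9.43% of all genes were called lower and 11.2% higher. The 15 were *Cad*, *Ctps*, *Umps*, *Dhodh*, *Rrm1*, *Rrm2*, *Tk1*, *Dck*, *Prps1*, *Ppat*, *Gart*, *Pfas*, *Adsl*, *Impdh2* and *Gmps*, and the 4 were *Taldo1*, *Pgls*, *Ctps2* and *Samhd1*. The ranges of the groups did not overlap for 13 genes, with IOX5 below DMSO for 10 and above it for 3. Among all genes tested, 8.3% had every IOX5 sample below every DMSO sample and 5.98% had every one above. Within same-numbered pairs, 20 of the 36 genes (55.6%) were lower with IOX5 in 4 of 4 pairs, against 19.8% of all genes tested, and 5 (13.9%) were higher in 4 of 4 pairs, against 21.3%. In bulk RNA, fewer cells of a type and less RNA per cell cannot be told apart. In the edgeR test without the block, leaving out any 1 of 6 samples (DMSO 1 to 4, IOX5 1 or IOX5 3) left 0 of the 36 genes called, with 14 to 17 genes at an unadjusted p under 0.05. Among all genes tested, 1846 to 2351 had such a p in these fits, and 2506 of 12405 with all samples.

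**Figure D1:**
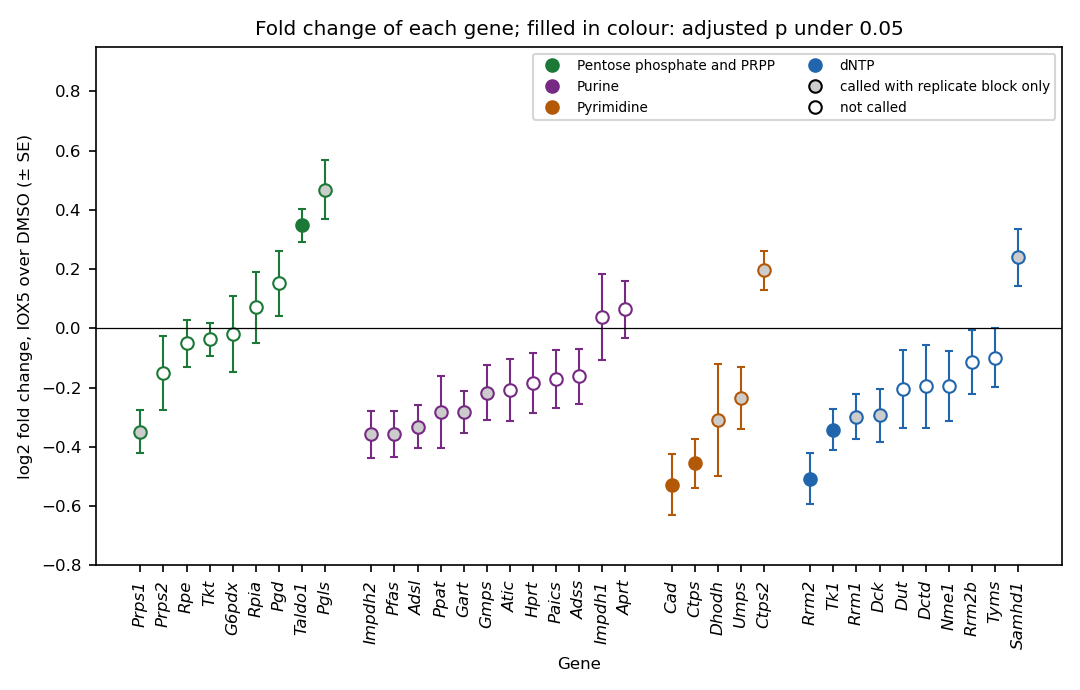
log2 fold change (IOX5 over DMSO, y axis, with its standard error as bars) of each of the 36 genes (x axis), coloured by group and sorted within it, from 4 samples a group. Coloured fills mark the 5 genes called without the replicate block, gray fills those called with the block only, and open circles those called in neither fit. Purine, pyrimidine and dNTP genes lie mostly below 0, down to −0.53 for *Cad*, whereas *Pgls* (0.47) and *Taldo1* (0.35) stand highest.

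The window before the transcription start is shown for the 5 genes called without the block, because HIF-α factors, which IOX5 stabilizes, bind DNA at a short core motif. The sequences are those of RefSeq on GRCm38.p6, in the direction of the gene, without any base of an annotated exon, and capitals mark the HIF core letters (ACGTG or GCGTG on either strand, so CACGT or CACGC where the other strand holds them). Relative to the start, they run from −250 to −1 in *Ctps* and *Taldo1* and from −156 to −1 in *Cad*. In *Rrm2* they run from −250 to −14, and in *Tk1* from −250 to −79. The stretches lie at chr5:31054624-31054779 (*Cad*, plus strand), chr4:120570277-120570526 (*Ctps*, minus strand), chr7:141391910-141392159 (*Taldo1*, plus strand), chr12:24708004-24708240 (*Rrm2*, plus strand) and chr11:117826093-117826264 (*Tk1*, minus strand).
Cad: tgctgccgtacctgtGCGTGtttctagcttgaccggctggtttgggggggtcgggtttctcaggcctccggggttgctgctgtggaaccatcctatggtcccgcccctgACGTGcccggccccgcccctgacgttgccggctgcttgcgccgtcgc
Ctps: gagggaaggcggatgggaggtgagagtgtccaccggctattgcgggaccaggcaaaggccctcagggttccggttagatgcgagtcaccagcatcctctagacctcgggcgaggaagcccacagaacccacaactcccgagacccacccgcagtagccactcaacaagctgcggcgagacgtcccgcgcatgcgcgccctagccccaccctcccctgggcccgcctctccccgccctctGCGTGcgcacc
Taldo1: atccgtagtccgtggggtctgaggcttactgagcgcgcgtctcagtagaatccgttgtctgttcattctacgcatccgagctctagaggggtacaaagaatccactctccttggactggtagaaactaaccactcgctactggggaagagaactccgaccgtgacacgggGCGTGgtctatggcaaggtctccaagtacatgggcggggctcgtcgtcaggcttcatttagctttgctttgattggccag
Rrm2: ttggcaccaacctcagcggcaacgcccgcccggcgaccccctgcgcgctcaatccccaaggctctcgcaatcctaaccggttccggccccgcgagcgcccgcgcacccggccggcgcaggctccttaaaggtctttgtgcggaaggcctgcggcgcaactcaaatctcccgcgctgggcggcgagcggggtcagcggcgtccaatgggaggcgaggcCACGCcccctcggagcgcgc
Tk1: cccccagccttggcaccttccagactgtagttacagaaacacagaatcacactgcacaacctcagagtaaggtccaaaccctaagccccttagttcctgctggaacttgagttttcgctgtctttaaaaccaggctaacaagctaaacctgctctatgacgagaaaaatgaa

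Of these 5 stretches, that of *Cad* held the HIF core at 2 places on the printed strand, those of *Ctps*, *Taldo1* and *Rrm2* held it at 1 place each (in *Rrm2* on the other strand), and that of *Tk1* held none. *Ctps* has another annotated start, whose window (chr4:120569460-120569709, not printed) also held the core at 1 place. The letters were thus found both before genes that fell and before the gene that rose. RefSeq windows were at hand for 33 of the 36 genes (not for *Dhodh*, *Rrm2b* and *Pfas*). In the 250 bases before the start, 24 of the 33 (72.7%) held the HIF core, compared with 62% of 9320 tested genes with a window and 41.5% of all 27025 genes in the table. The E-box CACGTG, which contains the HIF core ACGTG, was found in 5 of 33 (15.2%), namely *Atic*, *Paics*, *Impdh2*, *Tyms* and *Nme1*, against 10.1% of tested genes and 6.86% of all genes. E2F letters (TTTGGCGC, TTTCCCGC, TTTGCCGC or TTTCGCGC on either strand) were found only in the window of *Ppat*, which is 3.03% of the 33, against 4.06% of tested genes and 2.16% of all. These matches describe the letters in the windows and not binding.

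Pyrimidine synthesis held the gene with the largest decrease of the 36, and all 5 of its genes were called with the replicate block, 4 lower and 1 higher. In that fit, 9.43% of all genes tested were called lower and 11.2% higher. With both samples of number 1, 2 or 3 left out of that fit, only 2 of the 5 (*Cad* and *Ctps*, both lower) were called, and *Umps*, *Dhodh* and *Ctps2* were not. *Cad* encodes the multifunctional protein of the opening steps, located at chr5:31054780-31078479 on the plus strand (GRCm38). Its level was 301, 335, 261 and 262 CPM in DMSO samples 1 to 4 and 176, 197, 225 and 206 CPM in IOX5 samples 1 to 4. Every IOX5 sample lay below every DMSO sample, and DMSO 2 was the highest. The mean fell by 30.6%, which is 289.5 ± 35.4 CPM with DMSO against 201 ± 20.3 CPM with IOX5 (SD, n = 4). The log2 fold change was −0.53 (SE 0.103), with an adjusted p of 0.0443 in edgeR. That call was lost with each of the 8 samples left out in turn (adjusted p 0.0522 to 0.131) and with RLE factors (0.0507), while it held in 4 of 4 fits with the block and both samples of 1 number left out.

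*Ctps* and *Ctps2* encode the CTP synthases, which turn UTP into CTP at the end of the pathway, and in the fit with the block one isozyme was called lower and the other higher. *Ctps* (chr4:120539868-120570276, minus strand) measured 106, 122, 113 and 111 CPM in DMSO samples and 80.5, 73.4, 82.5 and 94.0 CPM in IOX5 samples, with no overlap. It fell by 27.0% (−0.45 ± 0.0832 SE on the log2 scale), with an adjusted p of 0.0381. *Ctps2*, on the X chromosome, measured 83.2, 92.5, 88.8 and 92.3 CPM and 93.7, 108, 102 and 105 CPM in the same order of samples. All 4 IOX5 samples were above all 4 DMSO samples, but by a smaller margin (0.20 ± 0.0654), and the adjusted p was 0.145 without and 0.0372 with the block.

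The remaining genes of the branch were less clear. *Umps*, whose product makes UMP from orotate, measured 147, 179, 169 and 177 CPM with DMSO and 126, 128, 153 and 165 CPM with IOX5. It was lower in 4 of 4 pairs although the ranges overlapped, and its log2 fold change of −0.23 (SE 0.104) had an adjusted p of 0.252 without and 0.0331 with the block. *Dhodh*, the mitochondrial enzyme of the branch, was weakly expressed and split by sample number instead: DMSO samples 1 and 2 had 31.8 and 32.7 CPM, DMSO samples 3 and 4 had 20.8 and 21. Its IOX5 values of 25.1, 23.5, 17.8 and 19.4 CPM followed the same split and were lower in 4 of 4 pairs, so that the adjusted p was 0.398 without and 0.036 with the block.

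**Figure D2:**
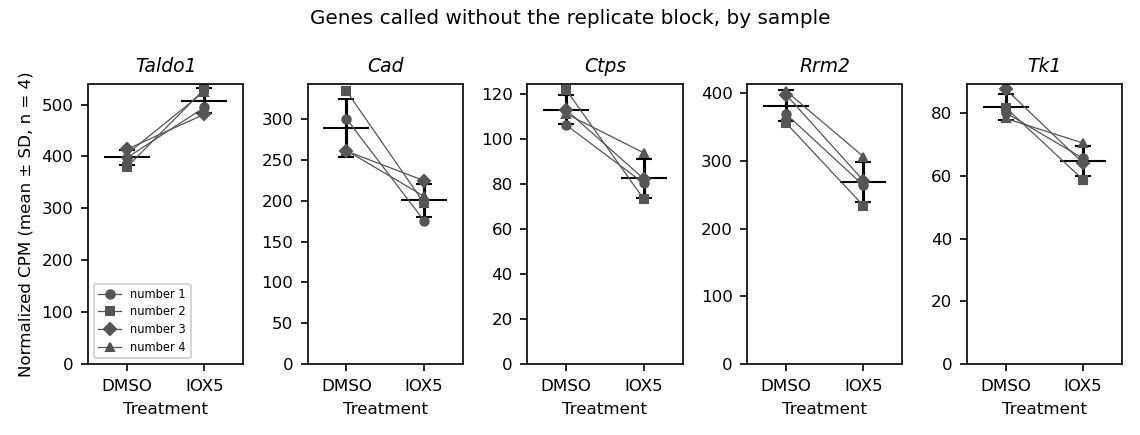
Normalized CPM (y axis, starting at 0) of the 5 genes called without the replicate block, in 4 DMSO and 4 IOX5 samples (x axis). Marker shapes give the sample number, thin lines join samples of the same number, horizontal bars are means and vertical bars are SDs. All 4 lines rise for *Taldo1* and all 4 fall for *Cad*, *Ctps*, *Rrm2* and *Tk1*, with no overlap between the groups.

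The pentose phosphate genes did not move as 1 group. Of the 9 genes, 4 had a higher and 5 a lower mean with IOX5, 1 was called higher, and the median log2 fold change was −0.02, which is 0.07 without the PRPP synthetase genes. With the block, 2 were called higher and 1 lower. Of all genes tested, 0.774% were called higher without the block, and 11.2% higher and 9.43% lower with it. *Taldo1* encodes transaldolase of the reversible steps and lies at chr7:141392199-141402968 on the plus strand. It measured 397, 379, 414 and 404 CPM in the DMSO samples and 494, 529.5, 481 and 525 CPM in the IOX5 samples, with no overlap and the smallest SD relative to its mean of the 5 called genes in either group. It rose by 27.3%, a log2 fold change of 0.35 (SE 0.0565) with an adjusted p of 0.026.

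*Pgls*, which encodes the lactonase between both dehydrogenases of the oxidative steps, had the largest positive fold change of the 36 genes but just missed the threshold. Its level was 64.8, 48.5, 60.5 and 54.0 CPM with DMSO and 75.5, 75.6, 76.3 and 88.0 CPM with IOX5. The groups did not overlap, and IOX5 sample 4 stood above the other IOX5 samples. The log2 fold change was 0.47 (SE 0.0988), with an adjusted p of 0.0506 without and 0.00199 with the block. An annotated gene, *Fam129c* (159 reads in all 8 libraries), overlaps it on the same strand, and reads falling on both would be ambiguous.

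Both dehydrogenases that yield NADPH were called in neither fit. *G6pdx*, the entry enzyme, had 344, 426, 350.3 and 362 CPM in DMSO and 305, 462, 346 and 351 CPM in IOX5 samples. In both groups sample 2 was the highest, the groups overlapped, and the log2 fold change was −0.02 (SE 0.128, adjusted p 0.955). *Pgd*, the later dehydrogenase, measured 577, 702, 628 and 665 CPM with DMSO and 594, 847, 692 and 725 CPM with IOX5. It was higher with IOX5 in 4 of 4 same-numbered pairs, but the ranges overlapped, and its log2 fold change of 0.15 (SE 0.109) had an adjusted p of 0.475, and 0.133 with the block. *Tkt* (transketolase), *Rpe* (ribulose phosphate epimerase) and *Rpia* (ribose phosphate isomerase) had log2 fold changes of −0.04, −0.05 and 0.07, each with an adjusted p of at least 0.760. *Tkt* was the most abundant of the 36 genes by reads, at 967 ± 27.9 CPM with DMSO and 943 ± 46.8 with IOX5. Divided by all annotated exons (7355 bases, against 2171 for *Taldo1*), its DMSO level was 131.5 CPM per kilobase, under the 184 of *Taldo1*. These lengths can exceed that of the expressed transcript, so this order does not show which mRNA is more numerous.

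*Prps1* and *Prps2* encode PRPP synthetases, the link from ribose phosphate to nucleotides. *Prps1* measured 107, 113, 114 and 105 CPM with DMSO and 88.7, 76.5, 85.0 and 94.5 CPM with IOX5. The groups were apart, but the adjusted p of 0.05001 lay just above the threshold of 0.05 (log2 fold change −0.35, SE 0.0732), and it was 0.00526 with the block. *Prps2* had a log2 fold change of −0.15 (SE 0.125, adjusted p 0.538), and its lowest value was that of IOX5 sample 2 (46.2 CPM, where the other 7 samples had 62.1 to 72.7 CPM).

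Of the 12 purine genes, 10 had a lower mean with IOX5 (median log2 fold change −0.21), and none passed the threshold without the block. The median was −0.14 without IOX5 sample 2 and −0.29 without IOX5 sample 4. At an unadjusted p under 0.05 there were 6, and the same number was called with the block (*Ppat*, *Gart*, *Pfas*, *Adsl*, *Impdh2* and *Gmps*, all lower). Of all 12405 genes tested, 2506 had an unadjusted p under 0.05, and 9.43% were called lower with the block. DESeq2 and limma called 4 purine genes lower each. In the whole table they called 546 of 25356 genes lower (DESeq2, with no filter on low counts) and 610 of 12405 (limma). These shares rest on different sets of genes. *Impdh2*, the main isoform of the enzyme that commits IMP to guanine nucleotides, measured 254, 272, 245 and 247 CPM with DMSO and 206, 176, 189 and 222 CPM with IOX5. *Pfas*, an amidotransferase of the middle of the pathway, measured 163, 154, 157 and 159 CPM and 126, 106, 131 and 132 CPM. *Adsl*, the lyase used both in ring assembly and in making AMP, measured 132, 149.6, 128 and 134 CPM and 102, 103, 109 and 117 CPM. For all 3 the IOX5 samples lay below the DMSO samples without overlap.

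Those 3 genes had similar fold changes and missed the threshold narrowly. The log2 fold changes were −0.36 for *Impdh2*, −0.36 for *Pfas* and −0.33 for *Adsl* (SE 0.0794, 0.0774 and 0.0727). Their adjusted p values were 0.0551, 0.0532 and 0.0543 without the block, and 0.00539, 0.00277 and 0.00621 with it. *Gart*, a trifunctional enzyme of ring assembly, also showed no overlap, at 397 ± 20.04 CPM with DMSO and 326 ± 26.9 with IOX5 (adjusted p 0.0773, and 0.0153 with the block).

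*Ppat* and *Paics* start head to head on opposite strands of chromosome 5 and their annotated starts overlap. *Ppat*, the amidotransferase that commits PRPP to purines, had 139, 147, 149 and 157 CPM with DMSO and 117, 93.9, 131 and 145 CPM with IOX5. IOX5 sample 2 was the lowest of all 8, IOX5 sample 4 lay within the DMSO range, and IOX5 was lower in 4 of 4 pairs. Its log2 fold change was −0.28 (SE 0.121, adjusted p 0.235, and 0.0219 with the block). For *Paics*, which carries out middle steps of ring assembly, the log2 fold change was −0.17 (SE 0.0972, adjusted p 0.366, and 0.0958 with the block). *Gmps*, the GMP synthetase, measured 191, 199.7, 209 and 208 CPM with DMSO and 179, 143, 176 and 196 CPM with IOX5. It was lower in 4 of 4 pairs, with IOX5 sample 4 inside the DMSO range, and had an adjusted p of 0.231 without and 0.0469 with the block at a log2 fold change of −0.22. *Atic*, the enzyme of the closing steps to IMP, and *Adss*, which diverts IMP toward AMP, had log2 fold changes of −0.21 and −0.16 and were called in neither fit.

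The salvage genes and the other IMP dehydrogenase gene were called in neither fit. *Hprt*, which recovers hypoxanthine and guanine, had the highest DMSO level per kilobase of annotated exon of the 36 genes (279.5 CPM per kilobase, over 1289 bases). Its log2 fold change was −0.18 (SE 0.101, adjusted p 0.349, and 0.0679 with the block). *Aprt*, which recovers adenine, had 124, 139, 127 and 127 CPM with DMSO and 115, 134, 132 and 159 CPM with IOX5. Its groups overlapped, IOX5 sample 4 was the highest of all 8, and the log2 fold change was 0.06 (SE 0.0968). *Impdh1* had 56.6, 36.9, 55.5 and 57.3 CPM with DMSO and 56.2, 45.4, 57.8 and 52.4 CPM with IOX5, with DMSO sample 2 the lowest of all, and a log2 fold change of 0.04 (SE 0.145).

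Among the dNTP genes, 9 of 10 had a lower mean with IOX5, 2 of those were called lower, and the median log2 fold change was −0.20. Of all 12405 genes tested, 5855 had a log2 fold change below 0 and 1.25% were called lower. *Rrm2* encodes the small subunit of ribonucleotide reductase that cells make in S phase, and it lies at chr12:24708241-24714146 on the plus strand. Its level was 369.7, 356, 398 and 404 CPM in DMSO samples and 264, 234, 271 and 306 CPM in IOX5 samples, which did not overlap. It fell by 29.6%, from 382 ± 22.6 to 269 ± 29.8 CPM, a log2 fold change of −0.51 (SE 0.0863) with an adjusted p of 0.0294. *Rrm1*, the large subunit, had 555, 575, 601 and 598 CPM with DMSO and 472, 415, 480.1 and 526 CPM with IOX5, again with no overlap. Its adjusted p was 0.0766 without and 0.00796 with the block (log2 fold change −0.30, SE 0.0758).

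*Tk1*, the cytosolic thymidine kinase (chr11:117815526-117826092, minus strand), also fell. It measured 80.2, 81.8, 87.8 and 78.4 CPM with DMSO and 65.6, 58.8, 64.1 and 70.5 CPM with IOX5, and no IOX5 value reached the DMSO range. The decrease was 21.1% (−0.34 ± 0.0698 SE on the log2 scale, adjusted p 0.0481), and of the 5 called genes it was the nearest to the threshold. *Dck*, the kinase of deoxycytidine and of several antileukemic nucleoside drugs, had 106, 131, 118 and 122 CPM with DMSO and 87.2, 109.9, 98.6 and 94.3 CPM with IOX5. It was lower in 4 of 4 pairs, although the groups overlapped through DMSO sample 1 and IOX5 sample 2, and the adjusted p was 0.118 without and 0.00547 with the block.

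*Samhd1*, a hydrolase that degrades dNTPs, was the only dNTP gene with a higher mean. It measured 95.9, 101, 99.8 and 105 CPM with DMSO and 100.1, 139, 122 and 113 CPM with IOX5, and IOX5 sample 1 lay within the DMSO range. Its log2 fold change was 0.24 (SE 0.0965), with an adjusted p of 0.212 without and 0.0431 with the block. *Tyms* (thymidylate synthase), *Dut* (dUTPase), *Dctd* (dCMP deaminase), *Nme1* (a nucleoside diphosphate kinase) and *Rrm2b* (the small subunit induced by p53) were called in neither fit. Their log2 fold changes ran from −0.20 for *Dut* to −0.10 for *Tyms*, with standard errors of 0.0992 to 0.140. In *Dut* and *Dctd* IOX5 sample 2 stood lowest, at 135 and 13.6 CPM against 175 to 218 and 19.3 to 21.8 CPM in the other IOX5 samples. *Nme1* shares its strand with an overlapping annotated transcript, *Gm20390* (0 reads), and reads on both would be ambiguous.

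**Figure D3:**
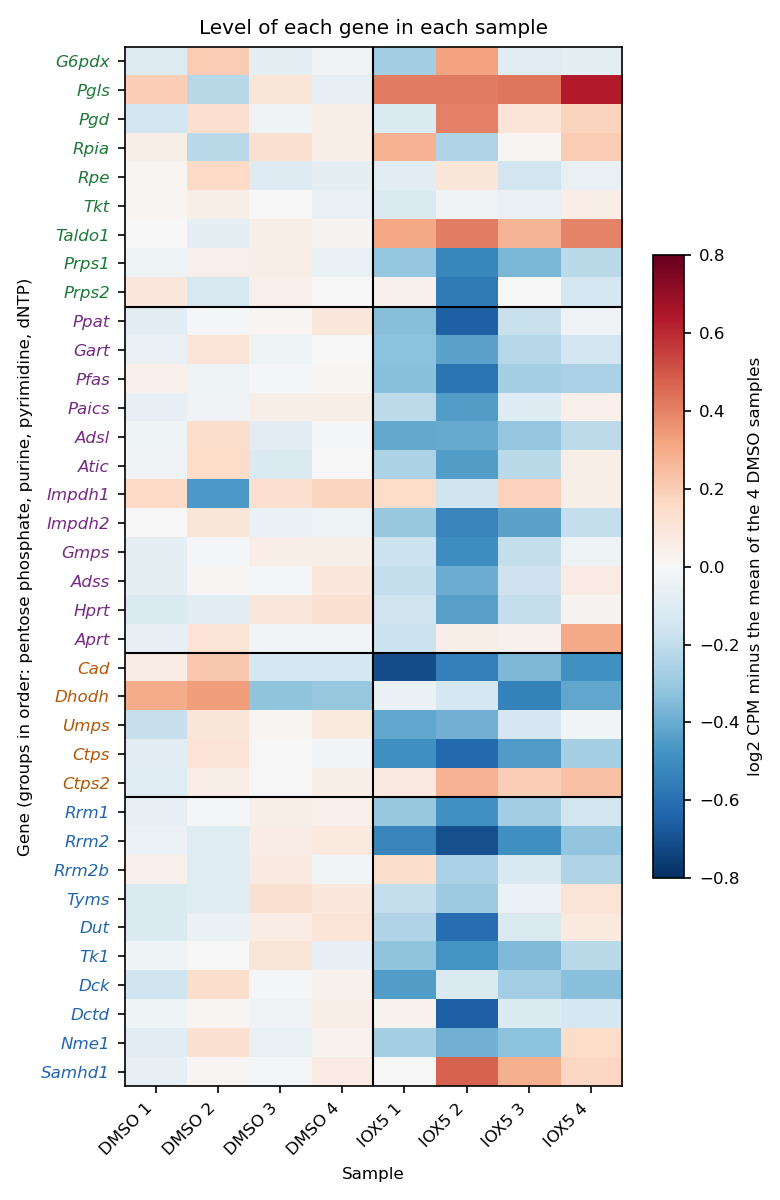
log2 CPM of each of the 36 genes (y axis, in pathway order) in each of the 8 samples (x axis), as the difference from the mean of the 4 DMSO samples (color scale, log2 units). Blue is lower and red is higher. Blue fills most of the IOX5 columns below the pentose phosphate block, deepest in IOX5 2 and palest in IOX5 4.

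The IOX5 samples were not equally far from DMSO. Averaged over the 36 genes, the log2 level relative to the DMSO mean was −0.18, −0.27, −0.14 and −0.03 in IOX5 samples 1 to 4, and between −0.03 and 0.02 in the DMSO samples. IOX5 sample 2 was the lowest IOX5 sample for 22 of the 36 genes, and IOX5 sample 4 was the highest IOX5 sample for 22. Without IOX5 sample 4 the edgeR test called 10 genes lower and 1 higher, and without IOX5 sample 2 it called 2 lower (*Rrm2* and *Pfas*) and 1 higher (*Taldo1*). The calls of the whole table moved the same way. They were 333 lower and 130 higher of 12630 genes without IOX5 sample 4, and 76 lower and 53 higher of 12557 without IOX5 sample 2. The purine genes spread most, at −0.23, −0.41, −0.17 and −0.03 in IOX5 samples 1 to 4, while the pyrimidine genes kept closer together, at −0.32, −0.28, −0.26 and −0.19. Averages for the pentose phosphate genes were 0.02, 0.03, 0.02 and 0.11. A list of 27 DNA replication genes had the same order of samples as the purine genes, at −0.29, −0.41, −0.19 and −0.10, whereas 15 glycolysis genes were at 0.34, 0.40, 0.35 and 0.36. No test was run on these averages.

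Where a step has a pair of related enzymes, their ratio was taken per kilobase of exon. *Ctps* over *Ctps2* was 1.82, 1.88, 1.81 and 1.72 in DMSO samples 1 to 4 and 1.22, 0.967, 1.15 and 1.28 in the IOX5 samples. The means were 1.81 ± 0.0666 and 1.15 ± 0.136 (SD, n = 4), so the ratio fell with IOX5, and the groups did not overlap. How near it comes to 1 depends on the exon lengths used, 3316 bases for *Ctps* and 4720 for *Ctps2*. By CPM without lengths, *Ctps* was above *Ctps2* in every DMSO sample and below it in every IOX5 sample. *Impdh2* over *Impdh1* was 4.80, 7.89, 4.73 and 4.61 with DMSO and 3.93, 4.16, 3.501 and 4.54 with IOX5. Those groups did not overlap either, although the gap between DMSO 4 and IOX5 4 was small and DMSO 2 stood far above.

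The other pairs overlapped between the groups while being lower in 4 of 4 same-numbered pairs. *Rrm2* over *Rrm2b* had means of 50.9 ± 2.75 and 39.2 ± 6.83, *Prps1* over *Prps2* of 3.12 ± 0.281 and 2.76 ± 0.393. *G6pdx* over *H6pd*, its relative in the endoplasmic reticulum, had means of 5.10 ± 0.912 and 4.61 ± 1.14. *Tk1* over *Tk2*, the mitochondrial thymidine kinase, had means of 3.35 ± 0.840 and 2.45 ± 0.865. The pairs were not tested, and a ratio shows only that 2 mRNAs changed unequally.

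**Figure D4:**
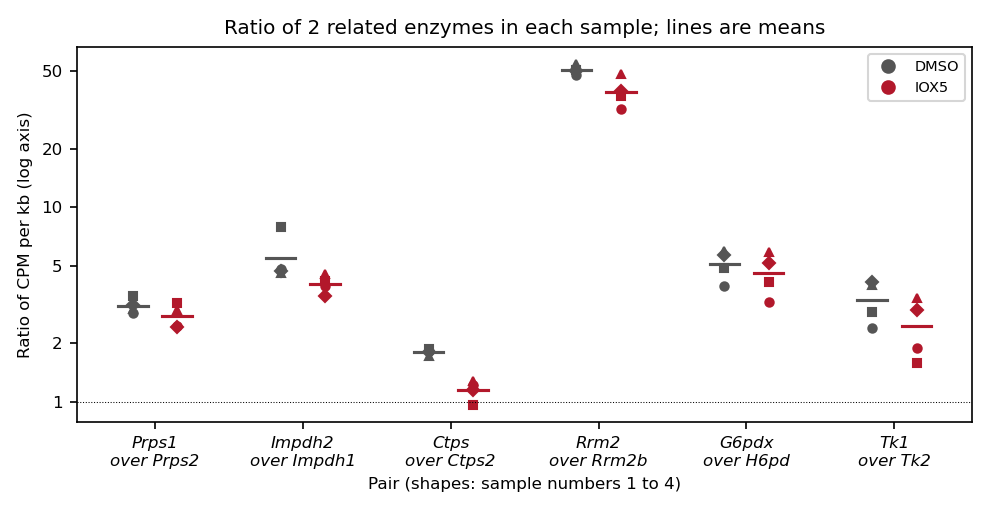
Ratio of CPM per kilobase of 6 pairs of related enzymes (x axis) on a log axis, in 4 DMSO (gray) and 4 IOX5 (red) samples. Shapes give the sample number, horizontal lines are means and the dotted line marks a ratio of 1. The groups are apart for *Ctps* over *Ctps2* (means 1.81 and 1.15) and for *Impdh2* over *Impdh1*, and overlap for the other 4 pairs.

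Of 65 other genes of the same pathways, 55 had enough reads to be tested, and they fell on both sides of 0 in near-equal numbers. Their means were higher with IOX5 for 29 and lower for 26, the median log2 fold change was 0.01, and 1 was called in each direction (5 higher and 4 lower with the block). The gene called higher was *Dguok*, the mitochondrial kinase of purine deoxynucleosides, which measured 12.8, 12.1, 12.5 and 13.2 CPM with DMSO and 19.1, 16.1, 19.5 and 17.2 CPM with IOX5, without overlap (log2 fold change 0.50, SE 0.0998, adjusted p 0.0455).

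With the block, 7 more were called, and the 5 higher and 4 lower of 55 compare with 11.2% higher and 9.43% lower among all genes tested, so these genes did not stand out by number. *Ak4*, a mitochondrial adenylate kinase and a known HIF target, had means of 57.4 CPM with DMSO and 108 CPM with IOX5 (adjusted p 0.114 without the block, 6.24e-05 with it). *Adssl1*, the paralog of *Adss*, had means of 109 and 151 CPM (0.229 and 0.000581), and *Ak1*, the cytosolic adenylate kinase, 2.50 and 5.93 CPM (0.0989 and 0.00446). *Uckl1*, a uridine-cytidine kinase homolog, had means of 22.7 and 27.6 CPM (0.252 and 0.0486). On the lower side were *Mtap*, which salvages methylthioadenosine (82.5 and 64.2 CPM, 0.0873 and 0.00791), *Slc25a33*, a mitochondrial pyrimidine nucleotide carrier (13.6 and 10.8 CPM, 0.180 and 0.0370), and *Xdh*, which oxidizes purines to urate (73.7 and 52.7 CPM, 0.211 and 0.00203). Of these 7, *Ak4*, *Ak1* and *Mtap* also passed in DESeq2 (adjusted p 0.0115, 0.0163 and 0.0255) and in limma (0.0290, 0.0199 and 0.0240), and *Xdh* in limma alone (0.0320).

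**Figure D5:**
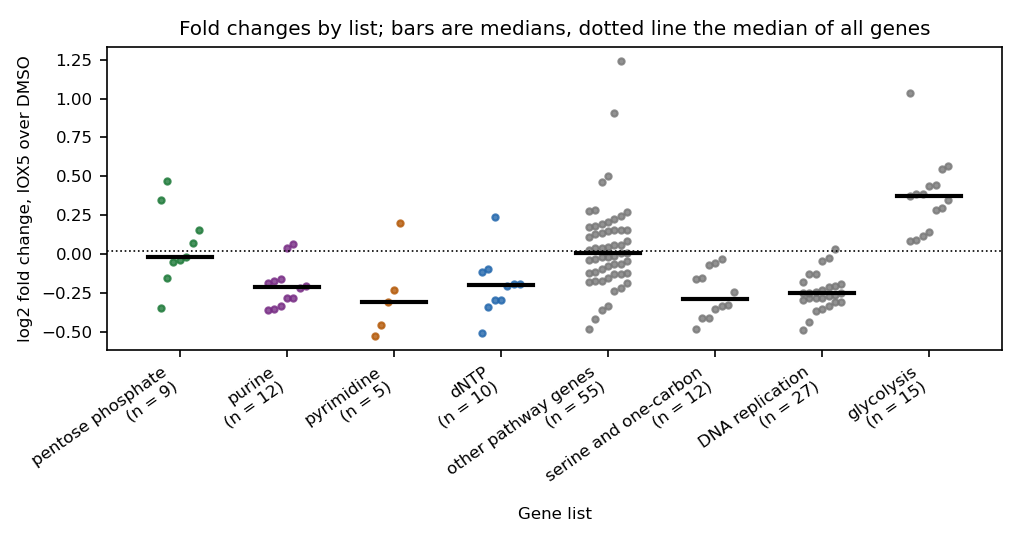
log2 fold change (IOX5 over DMSO, y axis) of every tested gene in the 4 groups of enzyme genes and in 4 comparison lists (x axis, n is the number of genes). Points are genes, bars are medians and the dotted line is the median of all 12405 genes (0.02). Purine, pyrimidine and dNTP medians lie between −0.20 and −0.31, the DNA replication and serine and one-carbon medians near them, and the glycolysis median at 0.38.

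Further lists place the enzyme genes among processes that use or supply nucleotides. Of 27 DNA replication genes, 26 had a lower mean with IOX5 (median log2 fold change −0.25), and 3 were called lower (17 with the block). Of 12 genes of serine synthesis and one-carbon metabolism, which supply carbon for purines and thymidylate, all 12 were lower, with a median of −0.29 and 2 called (6 with the block). All 15 glycolysis genes had a higher mean, with a median of 0.38 and 8 called (11 with the block), so the pentose phosphate median of −0.02 lay between those of glycolysis and of the purine genes. Among all genes tested, 1.25% were called lower and 0.774% higher, and with the block 9.43% lower and 11.2% higher. The difference between these lists was not tested.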

How the data were processed

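RNA-seq counts of 8 samples were analysed, 4 treated with DMSO and 4 with IOX5, with each condition taken from the sample's label. By the methods and the submitters' processing notes, the authors prepared stranded libraries from poly(A) RNA, read them from 1 end, trimmed adaptors with Cutadapt 1.18, aligned the reads to GRCm38 with HISAT2 2.2.1 and obtained the deposited counts per gene with HTSeq 2.0.1, unnormalized and 1 library at a time. Which annotation release and strand option HTSeq was run with is not given in the sources used here. *Xist* (105071 reads in all) and its antisense gene *Tsix* (21 reads) were told apart, so genes on opposite strands were counted separately. Identifiers were matched to GENCODE M21 for names, exons and coordinates (54809 of 54838 matched).

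Reads that HTSeq assigned to no gene (20.6% to 22.6%) entered neither library sizes nor tests. edgeR 4.0.16 in R 4.3.3 was used with filterByExpr (12405 genes kept), TMM factors (0.988 to 1.03) and the quasi-likelihood test of IOX5 against DMSO with no covariate. The common coefficient of variation was 0.202. p values were adjusted by Benjamini-Hochberg over all genes tested, and an adjusted p under 0.05 was a call. CPM values use TMM-scaled library sizes, log2 CPM a prior count of 2, and values per kilobase the union of annotated exons. That union can be longer than the transcript expressed, so levels per kilobase of different genes compare only roughly. Depth limits low genes most, and the fewest reads of a member were 2016 over 8 libraries (*Dctd*). The scripts were tested on simulated data.

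Deviations from group means correlated between samples of the same number (Pearson's r across genes 0.636 to 0.758, against −0.615 to 0.685 for other pairs), so the number, taken from the sample titles, was treated as a pairing, and the fit with it as a replicate block is given where it changes a call. Alternatives were DESeq2 1.42.0, limma 3.58.1 (voom, weighting samples), upper-quartile or RLE factors, no filter, at least 10 counts in every sample, each sample left out, and, added after seeing the data, the block with both samples of 1 number left out.

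The members were named, and the other pathway genes were those called in either fit, of which 1 is not reported here. The members, the gene lists and the alternatives were chosen with earlier results of these data known. Promoter windows came from RefSeq (GRCm38.p6), searched on both strands over 250 bases before each start.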

Additional observations from a re-analysis of the deposited data

Results flagged for a closer look

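Of 72 groups of 4 values (36 genes in 2 treatments), 2 held a sample whose distance from its nearest neighbor took up more of the group's range than Dixon's 95% critical value allows, where chance gives 3.6. *Pgls* in IOX5 sample 4 was at 88.0 CPM, where the other 3 IOX5 samples had 75.5 to 76.3 CPM (ratio 0.939). *Impdh1* in DMSO sample 2 was at 36.9 CPM, where the other 3 DMSO samples had 55.5 to 57.3 CPM (ratio 0.912).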

How the results depend on the processing

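Of the 36 genes, 31 kept the sign of their fold change in all 19 alternatives (15 planned, 4 added after seeing the data). Genes called higher (1 in edgeR) numbered 4 with the replicate block, 2 with DESeq2, 2 with limma, 2 with at least 10 counts in every sample and 0 with no filter. Genes called lower (4 in edgeR) numbered 15 with the replicate block, 10 with DESeq2, 11 with limma and 2 with RLE factors. Leaving out 1 sample at a time gave 0 to 1 called higher and 0 to 10 called lower. With the replicate block and both samples of number 1, 2, 3 or 4 left out, 2, 2, 2 and 4 genes were called higher and 10, 11, 8 and 19 lower, and *Cad*, *Ctps*, *Rrm2*, *Taldo1*, *Pgls*, *Prps1*, *Pfas*, *Adsl*, *Impdh2* and *Dck* were called in 4 of 4 of these fits. Across all genes, the block moved the calls from 96 higher and 155 lower to 1394 and 1170, and DESeq2 to 433 and 546. Limma gave 426 higher and 610 lower, and RLE factors 92 and 113. No filter gave 79 and 73, and at least 10 counts in every sample 117 and 149. With 1 sample left out, 0 to 130 genes of the whole table were called higher and 0 to 333 lower. The block without number 1, 2, 3 or 4 called 994, 1119, 642 and 1355 higher and 650, 1016, 403 and 1058 lower. Without DMSO 3, DMSO 4 or IOX5 3, edgeR called 0 genes of the whole table (1969, 1846 and 2111 at an unadjusted p under 0.05).

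The median log2 fold change of the 36 genes ranged from −0.26 to −0.12 with 1 sample left out, being lowest without IOX5 4 and highest without IOX5 2, and was −0.10 with the block and number 2 left out. With 1 sample left out, the purine median ranged from −0.29 (without IOX5 4) to −0.14 (without IOX5 2), the pyrimidine median ranged from −0.41 to −0.20 and the dNTP median from −0.30 to −0.11, and the latter was −0.11 with the block and number 2 left out. The 5 genes that changed sign were uncalled throughout: *G6pdx* (−0.150 to 0.0603 with 1 sample left out, 0.0128 with the block without number 1), *Rpia* (−0.0039 to 0.16), *Rpe* (−0.10 to 0.0041), *Impdh1* (−0.0928 to 0.107, and −0.0263 with the block without number 2) and *Aprt* (−0.0254 to 0.136, and −0.0302 with the block without number 4). The cause of these changes was not tested. Of the 5 genes called in edgeR, *Cad* was called in 0 of the 8 fits with 1 sample left out, *Ctps* and *Tk1* in 1, and *Rrm2* and *Taldo1* in 2. Counts rested on 4 samples a group, and the standard error was largest for *Dhodh* (0.188) and *Impdh1* (0.145).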
